A study of Mus musculus with 6 samples.

Results

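Described here are 10 genes listed as limbal stem and progenitor markers of the corneal epithelium. They are *Gpha2*, *Abcg2*, *Sox9*, *Lrig1*, *Cdh3*, *Bmi1*, *Cd63*, *Apoe*, *Tcf4* and *Cd200*. All 10 were chosen by name with earlier results of these data known, and all were found among the 17784 genes in the expression table. Expression was measured by bulk RNA-seq of corneal epithelium in 3 Ptch1Prrx1 samples and 3 control samples. Ptch1Prrx1 mice carried *Prrx1-CreERT* and floxed *Ptch1*, and the controls, titled wild type, are called ctrl in the treatment notes. Mice of both groups were 10 weeks old, received 3 doses of tamoxifen and were analysed after 2 months, and the epithelium was lifted off with EDTA. *Prrx1* drives the inducible Cre in keratocytes and other mesenchymal cells of the eye, so the deletion of *Ptch1*, the Hedgehog receptor that restrains the pathway, was directed at cells under the epithelium and not at the epithelium itself. The paper describes the 3 samples of a group as biological replicates. No source used here says whether a sample was 1 animal or a pool. The p values below therefore measure the spread between these samples, which may be in part technical.

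The corneal epithelium is renewed from stem cells in the basal layer of the limbus, the rim between cornea and conjunctiva. Their progeny move towards the centre of the cornea, divide in its basal layer and differentiate on their way to the surface, where keratin 12 is the typical keratin. Limbal cells are described in a quiescent outer state, for which *Gpha2* and *Cd63* are used as markers, and a more active inner state. The 10 markers do not form a pathway: they include a secreted hormone subunit, a lipid carrier, a drug efflux pump, cell surface proteins and nuclear regulators, and most of them are also expressed elsewhere in the eye.

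The 6 samples had similar depth, from 20296741 to 20625813 expected counts, the estimates of reads per gene that RSEM gives. Of the corneal keratins, *Krt12* ran from 631461 to 802023 normalized counts, here counts scaled to a common library size. The keratocyte gene *Kera* had at most 1 count in a control sample and 0 in each Ptch1Prrx1 sample. The paper reports less keratocan in keratocytes after *Ptch1* deletion, so *Kera* alone cannot gauge keratocyte RNA in these groups. The 12 stromal markers summed to 30.4, 25.5 and 113 CPM, counts scaled to library size, in controls 1, 2 and 3. In Ptch1Prrx1 samples 1, 2 and 3 they summed to 25.2, 29.8 and 18.3 CPM, so the sum was highest in control 3. *Col1a2* made up the largest part of it there, at 1239 normalized counts, with *Vim* at 342 and *Col6a1* at 175. *Col1a1*, *Col3a1*, *Col5a1*, *Ogn* and *Angptl7* were also highest in control 3, while *Dcn*, *Pdgfra*, *Thy1* and *Kera* were not. The 6 conjunctival markers summed to 1028, 1282 and 1565 CPM in controls and 3515, 1565 and 1967 CPM in Ptch1Prrx1 samples, highest in Ptch1Prrx1 sample 1. Nearly all of each sum came from the keratins *Krt13* and *Krt4*. Of the 4 conjunctival markers tested, 3 had log2 fold changes above 0 and 1, *Agr2*, was below it (-0.32, edgeR adjusted p = 0.515). *Muc5b* on the same list had at most 2 counts in any sample. Ptch1Prrx1 sample 1 also lay apart on the first principal component over all tested genes, at 51.7 against 18.3 and 19.1 for the other Ptch1Prrx1 samples. *Ptch1* had 517, 659 and 682 normalized counts in controls and 390, 445 and 471 in Ptch1Prrx1 samples, a log2 fold change of -0.51 ± 0.13 (SE, n = 3 per group, edgeR adjusted p = 0.0401); these are levels in the epithelium and do not check the deletion in the stroma. Bulk RNA cannot tell fewer cells of a type from less RNA per cell.

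The 10 markers did not move in a shared direction. *Cdh3*, which encodes P-cadherin, rose 2.42-fold in Ptch1Prrx1 epithelium, and *Abcg2*, the efflux pump that marks side population cells, fell by 30.8%. *Lrig1*, *Apoe* and *Bmi1* had lower values in every Ptch1Prrx1 sample than in any control, but none of these passed the test. *Gpha2*, *Sox9*, *Cd63* and *Tcf4* had overlapping groups, and *Cd200* was too low to be tested. Of the 9 markers tested, 1 was higher and 1 was lower at an adjusted p of at most 0.05 (edgeR quasi-likelihood test), where 7.61% of the 12999 tested genes were higher and 6.41% were lower. With library totals in place of TMM factors these shares were 6.07% and 7.75%, and the same 2 markers passed. With the study's further limit of at least a 2-fold change, 1 marker was higher and 0 were lower, where 2.34% of all genes were higher and 0.892% were lower. The groups did not overlap for 5 markers: 1 was higher and 4 were lower, where 19.7% of all genes were higher in each Ptch1Prrx1 sample and 20.3% were lower. The median log2 fold change of the 9 markers was -0.0044, beside -0.0099 for all tested genes.

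**Figure D1:**
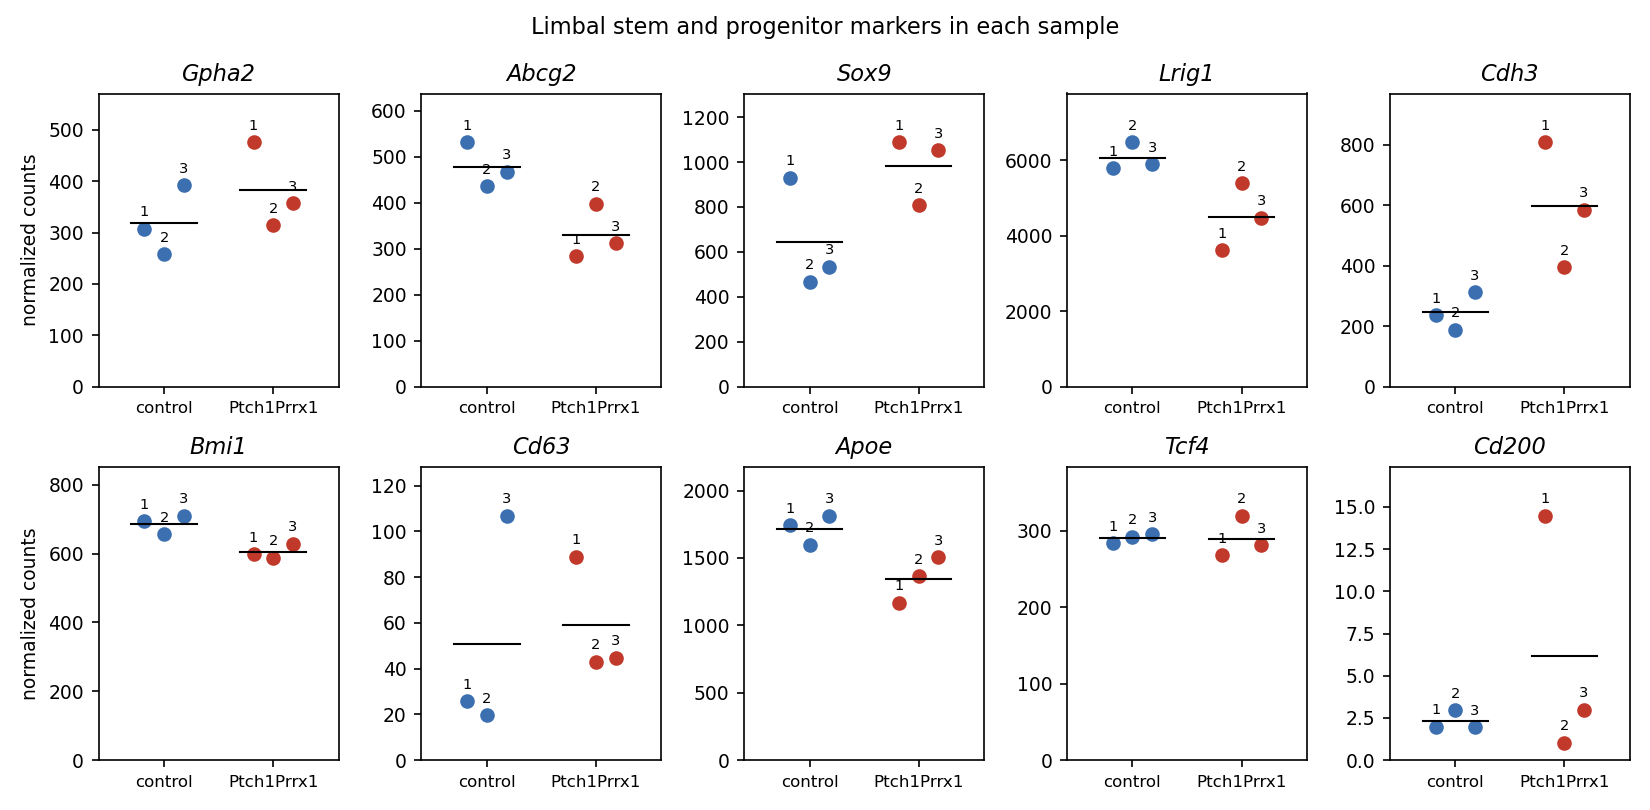
Normalized counts (y axis, from 0, a scale for each gene) of the 10 markers in the 3 control samples (blue) and the 3 Ptch1Prrx1 samples (red), with the replicate number above each point and a line at the group mean. *Cdh3* stood higher and *Abcg2*, *Lrig1*, *Bmi1* and *Apoe* stood lower in each Ptch1Prrx1 sample than in any control, and the groups overlapped for the other markers.

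The secreted products were *Gpha2* and *Apoe*. *Gpha2*, the alpha subunit of the glycoprotein hormone thyrostimulin and a marker of quiescent outer limbal cells, had 307, 258 and 392.1 normalized counts in controls 1, 2 and 3 and 476, 314 and 357 in Ptch1Prrx1 samples 1, 2 and 3. Ptch1Prrx1 sample 1 was the highest and control 2 the lowest, and control 3 exceeded both of the remaining Ptch1Prrx1 samples. Its log2 fold change of 0.26 ± 0.20 (SE) had a 95% interval from -0.20 to 0.72 and did not pass the test (edgeR adjusted p = 0.392); it was 0.08 without Ptch1Prrx1 sample 1 and 0.44 without control 3. In TPM, a relative level that corrects for gene length, *Gpha2* was at 62.8 ± 14.4 (SD, n = 3) in controls and 72.8 ± 13.4 (SD, n = 3) in Ptch1Prrx1 samples. The partners of the hormone were close to absent: *Gphb5*, the beta subunit, had at most 7 counts and *Tshr*, the thyrotropin receptor, at most 2 in any sample. The 250 bases before the start of *Gpha2* are shown because this is a marker of the quiescent limbal state. They lie on chromosome 19 of RefSeq build GRCm38.p6, chr19:6226151-6226400, plus strand.
Gpha2 promoter: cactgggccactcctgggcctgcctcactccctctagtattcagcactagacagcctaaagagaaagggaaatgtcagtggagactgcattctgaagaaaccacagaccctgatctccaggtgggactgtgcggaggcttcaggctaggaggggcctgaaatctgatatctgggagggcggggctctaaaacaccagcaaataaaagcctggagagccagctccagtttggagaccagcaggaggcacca

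*Apoe*, the lipid carrier apolipoprotein E, had 1744, 1598 and 1812 normalized counts in controls and 1168, 1365 and 1506 in Ptch1Prrx1 samples. The highest Ptch1Prrx1 sample lay just under the lowest control. The log2 fold change was -0.35 ± 0.10 (SE, 95% interval -0.59 to -0.11) and did not pass the test (edgeR adjusted p = 0.0585), while DESeq2 gave an adjusted p of 0.0227 and edgeR gave 0.0437 without Ptch1Prrx1 sample 3 and from 0.0901 to 0.144 without any 1 of the others. Of the 10 tested genes of a list of lipid receptors, transporters and regulators that act with ApoE, 1 rose and 1 fell, with a median log2 fold change of -0.14. For this list and each later one, the share of all tested genes past the same limit was 7.61% higher and 6.41% lower. *Lrp8*, an ApoE receptor, rose by a log2 fold change of 0.94 (edgeR adjusted p = 0.0207), and *Vldlr*, a related receptor, fell by 1.39 on the log2 scale (edgeR adjusted p = 0.0266).

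Of the tested cell surface markers, *Cdh3* had the largest log2 fold change. It had 236, 189 and 313 normalized counts in controls and 807, 394 and 585 in Ptch1Prrx1 samples, so each Ptch1Prrx1 sample lay above each control. This was a log2 fold change of 1.28 ± 0.28 (SE, 95% interval 0.63 to 1.93, edgeR adjusted p = 0.0281). In TPM the means were 6.54 ± 1.77 (SD, n = 3) in controls and 15.3 ± 4.87 (SD, n = 3) in Ptch1Prrx1 samples. P-cadherin is an adhesion protein of basal epithelial cells, and *Cdh1*, the E-cadherin of the whole epithelium, had a log2 fold change of 0.09 ± 0.07 (SE, edgeR adjusted p = 0.398). The highest *Cdh3* value was that of Ptch1Prrx1 sample 1, where the summed conjunctival markers, mostly *Krt13* and *Krt4*, were also highest (3515 CPM). Ptch1Prrx1 sample 3 (1967 CPM) exceeded every control in both as well. In Ptch1Prrx1 sample 2 the sum (1564.51 CPM) was just under that of control 3 (1565.05 CPM), while *Cdh3* was above every control. The part of conjunctival RNA was not tested. Without Ptch1Prrx1 sample 1 the log2 fold change of *Cdh3* was 1.00 (edgeR adjusted p = 0.0430), just under 2-fold. The call was lost without control 1 (log2 fold change 1.25, edgeR adjusted p = 0.0808), control 2 (1.12, adjusted p = 0.111) or Ptch1Prrx1 sample 3 (1.29, adjusted p = 0.0546). Of the 7 other cadherin and catenin genes tested, 1 rose and 0 fell, with a median log2 fold change of 0.14. It was *Cdh13*, which encodes the GPI-anchored T-cadherin, with 312, 216 and 293 normalized counts in controls and 529, 549 and 629 in Ptch1Prrx1 samples (log2 fold change 1.06, edgeR adjusted p = 0.010).

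*Abcg2* had 532, 437 and 468 normalized counts in controls and 283, 398 and 312 in Ptch1Prrx1 samples. All 3 controls lay above all 3 Ptch1Prrx1 samples, with Ptch1Prrx1 sample 2 closest to them. Its log2 fold change was -0.53 ± 0.14 (SE, 95% interval -0.86 to -0.20, edgeR adjusted p = 0.0476), so the fall was smaller than 2-fold. With 1 sample left out at a time, the edgeR adjusted p of *Abcg2* was 0.0305 without Ptch1Prrx1 sample 2 and from 0.0948 to 0.127 without any of the others, while the log2 fold change stayed between -0.69 and -0.43. Of the 4 tested genes on a list of other multidrug transporters, 1 rose and 0 fell, with a median log2 fold change of 0.19. The riser was *Abcc3*, an exporter of conjugated organic anions, at 21.9, 21.6 and 20.4 normalized counts in controls and 51.7, 68.8 and 82.6 in Ptch1Prrx1 samples (log2 fold change 1.66, edgeR adjusted p = 0.0112).

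*Lrig1*, a transmembrane protein that restrains ErbB receptors and marks epidermal stem cells, had 5799, 6481 and 5898 normalized counts in controls and 3621, 5396 and 4482 in Ptch1Prrx1 samples. The groups did not overlap, and Ptch1Prrx1 sample 1 was the lowest. The log2 fold change was -0.43 ± 0.14 (SE, 95% interval -0.75 to -0.11) and did not pass the test (edgeR adjusted p = 0.0747), while DESeq2 gave an adjusted p of 0.0181 and edgeR gave 0.0378 without Ptch1Prrx1 sample 2 and from 0.105 to 0.222 without any 1 of the others. Of 6 tested genes of the LRIG and ErbB list, 1 rose and 1 fell, with a median log2 fold change of -0.06. *Errfi1*, a feedback inhibitor of the EGF receptor, rose by a log2 fold change of 1.23 (edgeR adjusted p = 0.00717), and *Lrig3*, a relative of *Lrig1*, fell by 0.63 on the log2 scale (edgeR adjusted p = 0.0401).

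*Cd63*, a tetraspanin of late endosomes and exosomes, had 25.8, 19.7 and 107 normalized counts in controls and 88.9, 43.1 and 44.8 in Ptch1Prrx1 samples. Control 3 was the highest of all 6 samples, and the other controls were the lowest. The log2 fold change of 0.21 ± 0.64 (SE) had a 95% interval from -1.27 to 1.69 (edgeR adjusted p = 0.847), so neither a rise nor a fall of more than 2-fold was outside it. Control 3 is also the sample with the highest summed stromal markers (113 CPM), and without it the log2 fold change of *Cd63* was 1.37 (edgeR adjusted p = 0.0977). Control 3 was also the highest control for *Ifitm3*, *Krt15* and *Krt19*, on the list of other limbal and basal genes, but not for *Krt17*, *Itga6* or *Ngfr*. The part of stromal or limbal RNA was not tested. A *Cd63* pseudogene is annotated in the mouse, and the expected counts of *Cd63* were whole in all 6 samples. Whole counts cannot show whether other *Cd63* reads were assigned elsewhere or dropped, so its level may be underestimated. Of 11 other tetraspanins tested, 1 rose and 1 fell, with a median log2 fold change of 0.22. *Cd81*, which forms membrane microdomains with integrins, rose by 0.46 (edgeR adjusted p = 0.0191), and *Cd82* fell by 0.39 on the log2 scale (edgeR adjusted p = 0.0212).

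*Cd200*, an immunoglobulin family protein that signals to myeloid cells, had 2, 3 and 2 expected counts in controls and 14, 1 and 3 in Ptch1Prrx1 samples. All but Ptch1Prrx1 sample 1 were at or under 3 counts, the floor that a count of 0 allows, and the gene did not pass the filter on low counts. Without the filter its edgeR adjusted p was 0.396. A difference was not detectable at this depth. None of the genes listed as CD200 receptors passed the filter either.

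Among the nuclear regulators, *Sox9*, an SRY-box transcription factor of progenitors in many epithelia, had 929, 467 and 533 normalized counts in controls and 1088, 808 and 1052 in Ptch1Prrx1 samples. Control 1 was higher than Ptch1Prrx1 sample 2, and the other controls were below every Ptch1Prrx1 sample. The log2 fold change was 0.61 ± 0.25 (SE, 95% interval 0.02 to 1.204) and did not pass the test (edgeR adjusted p = 0.139). It was 0.97 without control 1, with an edgeR adjusted p of 0.0311, and from 0.42 to 0.73 without any 1 of the other samples, with an adjusted p of at least 0.138. Of 5 other Sox genes tested, 1 rose and 0 fell, with a median log2 fold change of 0.08. The gene that rose was *Sox6*, at a log2 fold change of 0.42 (edgeR adjusted p = 0.0274).

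*Tcf4* here is the gene of the bHLH E protein E2-2, and not *Tcf7l2*, the Wnt effector whose protein is also called TCF4. Which of these genes is meant where TCF4 is named as a limbal marker was not settled here. *Tcf4* had 283, 292 and 295 normalized counts in controls and 268, 319 and 281 in Ptch1Prrx1 samples. Its groups overlapped, and its log2 fold change was -0.0044 ± 0.097 (SE, 95% interval -0.23 to 0.22, edgeR adjusted p = 0.982). The median of the 9 tested markers given above is this value of *Tcf4*. *Tcf7l2* had 509, 585 and 566 normalized counts in controls and 489, 569 and 500 in Ptch1Prrx1 samples (log2 fold change -0.09, edgeR adjusted p = 0.528). Of 6 genes for other E proteins and the Id inhibitors that bind them, 1 rose and 1 fell, with a median log2 fold change of -0.01. *Id1* rose by 0.89 (edgeR adjusted p = 0.0112), and *Id4* fell by 0.67 on the log2 scale (edgeR adjusted p = 0.0438).

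*Bmi1*, a Polycomb repressive complex 1 protein needed for self-renewal in several stem cell types, had 695, 656 and 710 normalized counts in controls and 599, 588 and 629 in Ptch1Prrx1 samples. The groups were close together but did not overlap. The log2 fold change was -0.18 ± 0.07 (SE, 95% interval -0.35 to -0.02) and did not pass the test (edgeR adjusted p = 0.122). Of 17 genes listed with *Bmi1* (the other Polycomb complex 1 subunits and the cell cycle inhibitors of the *Cdkn2a* locus), 0 rose and 1 fell, with a median log2 fold change of -0.19. It was *Cbx7*, a chromodomain subunit, which fell by 0.81 on the log2 scale (edgeR adjusted p = 0.0256).

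Promoters were taken from the RefSeq table for the same build, from 250 bases before to 50 after each gene start, and 7 of the 10 markers matched it, with 11 promoters in all; *Sox9*, *Cdh3* and *Tcf4* were not matched. Each was searched on both strands for the letters of AP-1 (TGANTCA), TEAD (GGAATG), GLI (GACCACCCA) and E-box (CANNTG) motifs, counted separately where they overlap. TEAD factors carry YAP to DNA and GLI factors are the Hedgehog effectors. TEAD letters were in 3 of the 11 promoters and in 14.7% of the 32851 promoters in the table; the 3 belong to *Bmi1*, *Cd200* and *Apoe*. E-box letters were in 7 of 11, beside 72.3% of all promoters, and AP-1 and GLI letters were in 0 of 11, beside 7.81% and 0.253%. The bases before *Bmi1* are printed because they hold a TEAD match, in capitals, which begins 228 bases before the start, at chr2:18676768-18677017, plus strand; a match of letters is no evidence of binding.
Bmi1 promoter: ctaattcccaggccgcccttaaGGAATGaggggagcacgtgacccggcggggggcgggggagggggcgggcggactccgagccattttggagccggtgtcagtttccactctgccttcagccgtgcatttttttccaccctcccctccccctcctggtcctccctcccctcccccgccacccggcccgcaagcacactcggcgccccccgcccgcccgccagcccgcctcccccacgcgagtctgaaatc

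Levels can be compared between markers only in TPM. Over the 6 samples, the mean TPM was 134 for *Apoe*, 122 for *Lrig1*, 67.8 for *Gpha2*, 20.6 for *Sox9*, 20.1 for *Abcg2*, 18.9 for *Bmi1*, 10.9 for *Cdh3*, 6.71 for *Cd63*, 4.09 for *Tcf4* and 0.195 for *Cd200*. The ranges over samples of neighbours in this order overlapped, except that *Gpha2* lay above *Sox9* by 3.29-fold and *Tcf4* above *Cd200* by 21.0-fold. *Apoe* and *Lrig1* ran from 92.8 to 164 TPM and from 78.1 to 153 TPM, so their order was not settled. The order of the group means differed. Mean *Sox9* (16.5 TPM) was below *Abcg2* (24.0) and *Bmi1* (20.4) in controls and above both in Ptch1Prrx1 samples (24.7 against 16.1 and 17.4). In control 1, however, *Sox9* (23.3 TPM) was above *Bmi1* (19.9), so their order in controls was not settled. Mean *Cdh3* (6.54) was close to *Cd63* (6.37) in controls.

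Whether the markers moved together was also examined sample by sample, as a description with no test. For each marker, the deviation of a sample is its log2 CPM minus the mean of the 6 samples. The mean deviation of the 9 tested markers was -0.0528, -0.298 and 0.159 in controls 1, 2 and 3 and 0.156, -0.0168 and 0.0526 in Ptch1Prrx1 samples 1, 2 and 3. Control 3 and Ptch1Prrx1 sample 1 thus had nearly equal means, and the ranges of the 2 groups overlapped. Ptch1Prrx1 sample 1 was the highest of the 6 samples for 4 of the 10 markers (*Gpha2*, *Sox9*, *Cdh3*, *Cd200*) and the lowest for 4 others (*Abcg2*, *Lrig1*, *Apoe*, *Tcf4*). Control 3 was the highest control for 6 markers, and control 2 the lowest control for 7. Within groups, the median Pearson correlation over the 36 marker pairs was 0.0412, and 52.8% of pairs were above 0, beside 50.02% of the pairs of all tested genes. Each of these correlations rests on 6 deviations in 2 groups of 3 from the same libraries. The highest was 0.964 between *Gpha2* and *Cdh3* and the lowest -0.903 between *Lrig1* and *Cdh3*. *Gpha2*, *Cdh3* and *Cd63* had within-group correlations of 0.789 to 0.964 with each other, and *Lrig1* with *Tcf4* had 0.917.

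**Figure D2:**
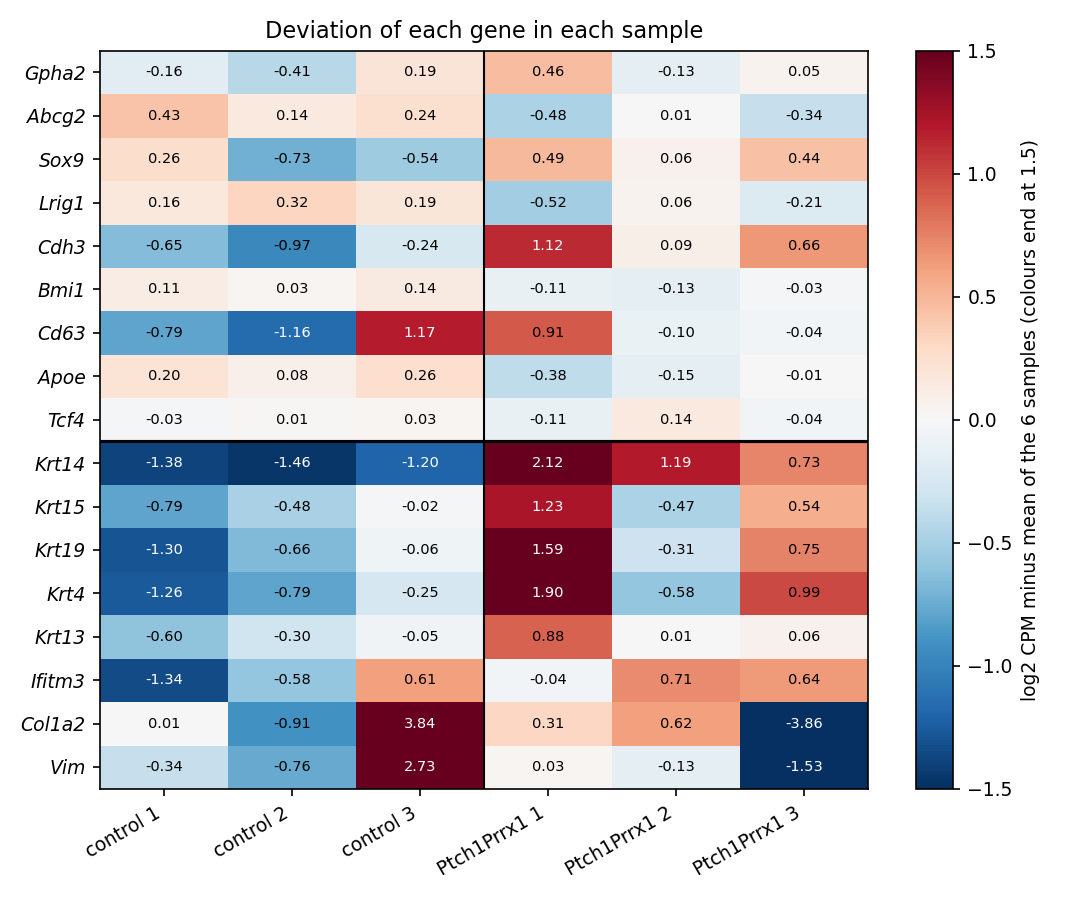
Log2 CPM minus the mean of the 6 samples (colour and printed value, colours end at 1.5) for the 9 tested markers above the line and 8 other genes below it, in each control and Ptch1Prrx1 sample. *Cdh3* was below its mean in all controls and above it in all Ptch1Prrx1 samples, *Cd63* was highest in control 3 with *Col1a2* and *Vim*, and no column had 1 colour for all markers.

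Other genes of limbal and basal cells were read from lists written with earlier results of these data known. Of 16 tested genes for basal keratins, integrins and other limbal markers, 5 rose and 0 fell, with a median log2 fold change of 0.37. Of all tested genes, 7.61% were higher and 6.41% were lower at the same limit. The groups did not overlap for 6 of these genes that were higher and 2 that were lower, *Ngfr* and *Sfrp1*, where 19.7% and 20.3% of all genes did not. *Krt14*, a basal keratin, had 8184, 7760 and 9282 normalized counts in controls and 93094, 48670 and 35435 in Ptch1Prrx1 samples (log2 fold change 2.81 ± 0.34 SE, edgeR adjusted p = 0.00769, and at most 0.0538 with 1 sample left out). *Krt17*, a keratin of basal and injured epithelium, had 215, 333 and 326 normalized counts in controls and 4389, 858 and 845 in Ptch1Prrx1 samples (log2 fold change 2.80 ± 0.67 SE, edgeR adjusted p = 0.0368); without Ptch1Prrx1 sample 1 the log2 fold change was 1.55 (edgeR adjusted p = 0.00526), and the call was lost without any 1 of the controls (0.0900 to 0.126). *Itga6*, a hemidesmosomal integrin subunit, had 9187, 9339 and 9300 normalized counts in controls and 17467, 16003 and 15285 in Ptch1Prrx1 samples (log2 fold change 0.81, edgeR adjusted p = 0.00376). The transcription factor *Trp63*, which basal epithelial cells need, had 6219, 6927 and 7250 normalized counts in controls and 6707, 7075 and 6201 in Ptch1Prrx1 samples (log2 fold change -0.03, edgeR adjusted p = 0.838). *Krt15*, a keratin of limbal basal cells, had 13800, 17150 and 23534 normalized counts in controls and 56034, 17269 and 34912 in Ptch1Prrx1 samples; its groups overlapped, and its log2 fold change of 0.99 ± 0.39 (SE) did not pass the test (edgeR adjusted p = 0.126). *Krt15* and the summed conjunctival markers, mostly *Krt13* and *Krt4*, were both highest in Ptch1Prrx1 sample 1. The part of conjunctival RNA in these keratin values was not tested.

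All 4 genes listed for active limbal cells had positive log2 fold changes and 2 passed the test, with a median of 1.70. The median was 2.63 without control 1, where *Atf3*, an immediate early transcription factor on this list, had 426 normalized counts against 40.3 and 28.1 in the other controls. *Socs3*, the feedback inhibitor of JAK-STAT signalling, had 31.8, 22.6 and 12.6 normalized counts in controls and 571, 329 and 465 in Ptch1Prrx1 samples (log2 fold change 4.34 ± 0.32 SE, edgeR adjusted p = 0.00263). *Mt2*, a metallothionein, rose by a log2 fold change of 0.60 (edgeR adjusted p = 0.0253). Of 13 genes of differentiated corneal epithelium, 1 rose and 2 fell, with a median of -0.10. *Clu*, the chaperone clusterin, rose by 1.00 (edgeR adjusted p = 0.00376), while *Aldh1a1*, a corneal crystallin and retinal-oxidizing enzyme, fell by 2.03 (edgeR adjusted p = 0.0276) and *Dsg1a*, a desmosomal cadherin, fell by 0.55 on the log2 scale (edgeR adjusted p = 0.0183). *Krt12* had a log2 fold change of -0.10 ± 0.13 (SE, edgeR adjusted p = 0.645).

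**Figure D3:**
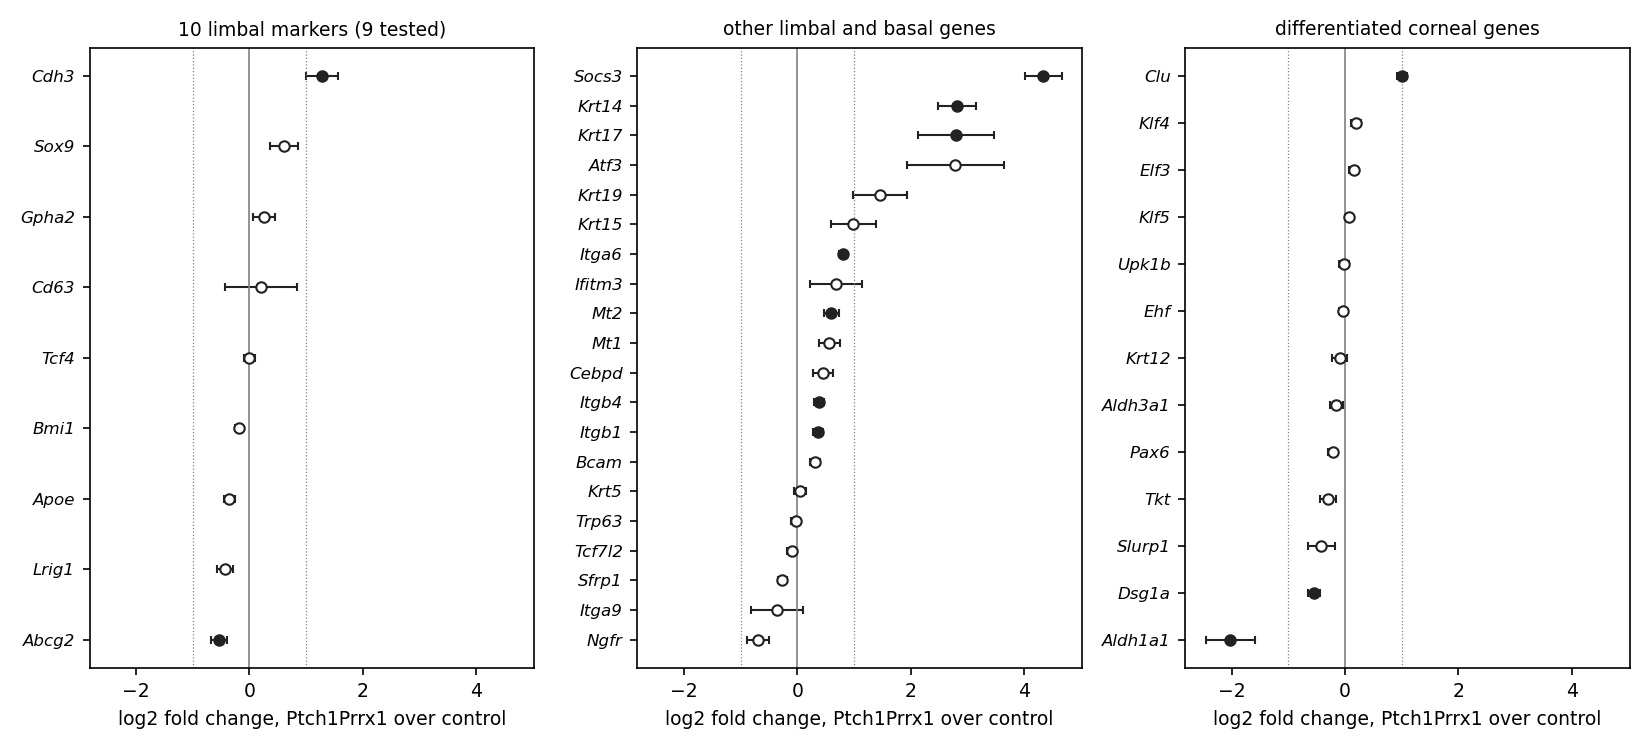
Log2 fold change of Ptch1Prrx1 over control (x axis, bars are ± SE, n = 3 per group) for the 9 tested markers, for 20 other limbal and basal genes (the basal and the active lists) and for 13 genes of differentiated corneal epithelium; filled points passed an adjusted p of 0.05 and dotted lines mark a 2-fold change. The markers lay on both sides of 0, from -0.53 for *Abcg2* to 1.28 for *Cdh3*.

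Of the markers of other cell types, 0 passed the test among the 6 stromal, 5 immune, 3 vascular, 4 melanocyte, 2 Schwann cell, 4 conjunctival and 2 corneal endothelial genes tested. Their median log2 fold changes were -1.19, -0.45, -0.53, 0.25, -0.22, 0.69 and 0.29. The stromal median turned to 0.22 without control 3, and the conjunctival median was 0.29 without Ptch1Prrx1 sample 1. The immune markers summed to 185 to 248 CPM in controls and 251 to 345 CPM in Ptch1Prrx1 samples, while *Ptprc*, the pan-leukocyte marker, had at most 9 counts. Most of this sum was *Itgam*, at 3024, 3729 and 4295 normalized counts in controls and 6056, 4468 and 4851 in Ptch1Prrx1 samples (edgeR adjusted p = 0.0759). Of the 5 immune genes tested, 2 had log2 fold changes above 0 and 3 below it. Vascular markers summed to 2.48 to 6.17 CPM and melanocyte markers to 9.09 to 11.7 CPM over the 6 samples, and the endothelial gene *Cdh5* had 1 count in 1 control and 0 in the other samples.

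**Figure D4:**
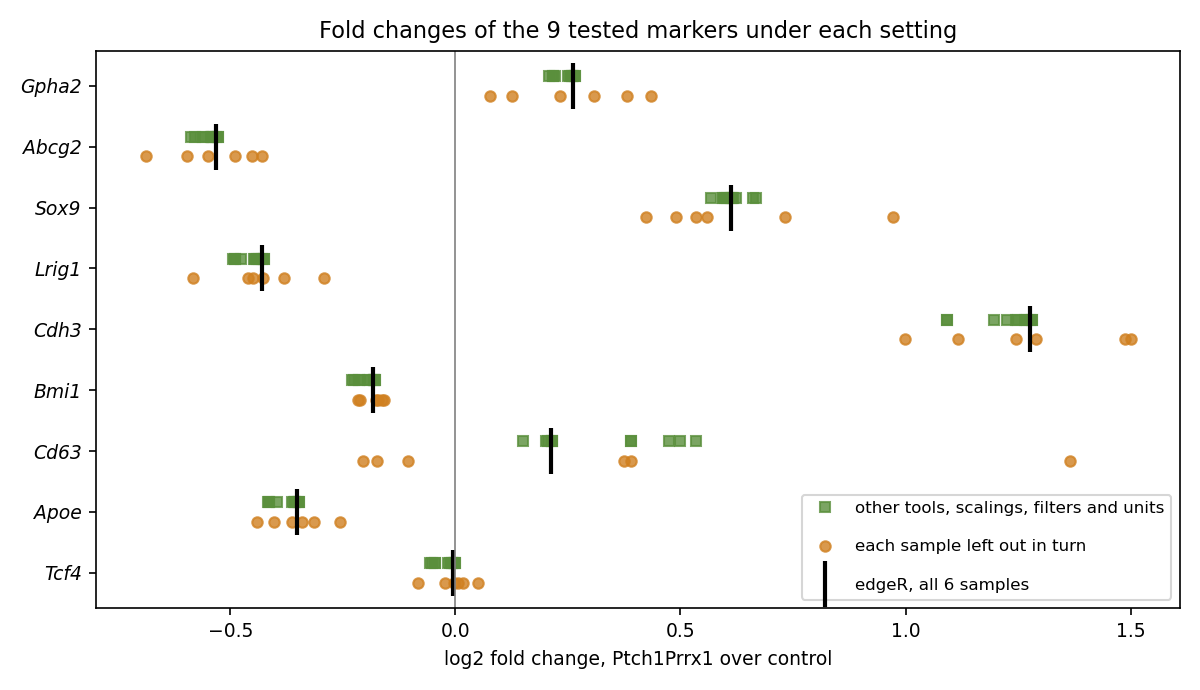
Log2 fold changes (x axis) of the 9 tested markers with edgeR on all 6 samples (black), with other tools, scalings, filters and units and with the replicate block (green), and with each sample left out in turn (orange). *Gpha2*, *Cdh3* and *Sox9* stayed above 0 and *Abcg2*, *Lrig1*, *Bmi1* and *Apoe* below it in every setting drawn, and *Cd63* ran from -0.21 to 1.37.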

How the data were processed

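Corneal epithelium of 3 control and 3 Ptch1Prrx1 samples was profiled by bulk RNA-seq. The paper describes rRNA depletion and DNA nanoball sequencing, and the labels name an Illumina kit. Per the submitters' processing notes, Bowtie2 2.2.5, RSEM 1.2.12 and build mm9 were used. The authors deposited expected counts, estimates of reads per gene with no scaling for depth, of which 39.4% above 0 were not whole (tolerance 1e-06). The authors also deposited TPM, which RSEM corrects for gene length and sets to a fixed total per sample, and FPKM and group means, which were not used. The number of other sample columns was 0.

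Expected counts were rounded. Of 17784 genes, 12999 passed filterByExpr and entered the quasi-likelihood test of edgeR 4.0.16 under R 4.3.3, with TMM factors of 0.960 to 1.03. P values were adjusted over all tested genes by Benjamini-Hochberg. A gene passed at an adjusted p of at most 0.05, and the study's call also needs a fold change of at least 2. The normalized counts printed are CPM computed with the TMM factors and multiplied by the mean effective library size. Standard errors are the log2 fold change over the root of the F statistic, and 95% intervals use the moderated degrees of freedom. The floor of 3 counts was 0.145 to 0.148 CPM and covers counting error only. Samples of a group differed by more than sampling noise (chi-square per degree of freedom 10.6 to 40.0). An exact permutation test of 3 against 3 cannot go below p = 0.1, so none is given.

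Groups and replicate numbers come from the labels. The members and lists were chosen with earlier results of these data known, so no list was tested. All 10 markers are named whatever their values, as are *Krt12*, *Krt14*, *Krt15*, *Trp63*, *Tcf7l2* and *Ptch1*, and from each other list at most the 3 largest changes that passed; the other genes named as cell type or hormone markers, and those drawn below the line in the plot of deviations, were picked after their values were seen, as was *Atf3*. The 18 alternatives were DESeq2 1.42.0, voom and log2 TPM (pseudocounts 1 and 0.1, mean TPM of at least 1 or no filter) in limma 3.58.1, other scalings, filters and thresholds, a replicate block and each sample left out. The procedure was tested on simulated data whose changes were larger than that of any tested marker, so it was not checked for changes of their size. Keratocyte and protein data were not analysed here.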

Additional observations from a re-analysis of the deposited data

How the results depend on the processing

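Under limma-voom, 3 other scalings, a filter of at least 10 counts in every sample and limma on log2 TPM with either pseudocount, 1 marker was higher (*Cdh3*) and 1 lower (*Abcg2*), and 1 was called higher. DESeq2 gave 3 lower markers (*Abcg2*, *Lrig1*, *Apoe*), where 7.95% of its genes were lower, and edgeR with no filter gave 0 lower, with *Abcg2* at an adjusted p of 0.0514, where 4.08% were. Limma on log2(TPM + 1) with no filter gave 0 higher, 0 lower and 0 called higher, with *Cdh3* at 0.0701, where 2.60% of genes were higher and 1.88% lower. An adjusted p of at most 0.01 also left 0 higher, 0 lower and 0 called higher, where 0.785% of genes were higher and 0.400% lower. With DESeq2 and in both unfiltered fits *Cd200* enters the median, which became 0.106 (DESeq2), 0.0970 (no filter) and 0.0667 (TPM, no filter). With each sample left out, the markers higher ran from 0 to 1, those lower from 0 to 2 and those called higher from 0 to 1, and the median from -0.175 to 0.0166; the share of all genes higher ran from 0.514% (without control 2) to 5.71%, and lower from 0.189% to 4.34%. Of the 21 other genes named as having passed, 6 (*Itga6*, *Socs3*, *Clu*, *Errfi1*, *Cdh13*, *Id1*) passed with any sample left out and 15 lost the call at least once. Of the 6 fits with a sample left out, *Ptch1*, *Lrig3* and *Id4* passed in only 1, and *Mt2*, *Sox6*, *Cbx7* and *Vldlr* in 2. The number called lower was 0 under all 18 alternatives. Without the named sample, *Cd63* turned to -0.11 (control 1), -0.18 (control 2) and -0.21 (Ptch1Prrx1 1) in a range from -0.21 to 1.37, and *Tcf4* to 0.0060 (control 3), 0.051 (Ptch1Prrx1 1) and 0.017 (Ptch1Prrx1 3) in a range from -0.083 to 0.051. Medians of lists also turned: immune 0.28 and vascular 0.24 with at least 10 counts; multidrug transporters -0.17 and -0.17, vascular 0.14 and 0.27 and melanocyte -0.013 and -0.033 in TPM with a mean of at least 1 and pseudocounts of 1 and 0.1, but not in TPM with no filter (0.12, -0.070 and 0.085); E protein and Id genes 0.0045 without control 3 and 0.037 without Ptch1Prrx1 1 (range with 1 sample left out -0.055 to 0.037); stroma 0.22 without control 3 (range -1.46 to 0.22). The cause of these changes was not tested beyond the genes and samples that each setting removes or adds.

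Same-numbered samples deviated with correlations of 0.105, -0.0137 and 0.0189, and 3 of 6 samples correlated best with their own number, so the numbers were not taken as a pairing. With the replicate block, 2 markers were higher (*Cdh3*, *Sox9*) and 2 lower (*Lrig1*, *Apoe*), where 8.02% and 6.54% of all genes were, and *Abcg2* had an adjusted p of 0.0719.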
